A study of Homo sapiens with 24 samples.

Results

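The genes described here encode the lysosome, its proton pump and the autophagy machinery that delivers cargo to it. They were chosen as a fixed set of 53 symbols, with earlier results of these data known. All 53 were among the 13033 genes of the deposited expression table. By role they comprise 3 transcription factors of the TFEB family, 5 lysosomal membrane proteins, 15 hydrolases, 3 luminal cofactors and lipid carriers, 12 subunits of the V-ATPase (5 of the V0 sector and 7 of the V1 sector) and 15 autophagy genes. Poly(A) RNA was sequenced from 2 human acute myeloid leukaemia cell lines. Molm-14 carries an internal tandem duplication of FLT3 (FLT3-ITD), a receptor tyrosine kinase that signals upstream of RAS. OCI-AML3, labelled OCIAML-3, carries NRAS Q61L, an activating change in RAS itself. Cultures of each line were given the solvent DMSO, or 25 nM of RMC-7977 for 2 h or 24 h. This compound blocks RAS proteins in their GTP-bound, signalling state.

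Each of the 6 groups has 4 samples in the labels, and all are given as 1 batch. In OCI-AML3 at 24 h the third replicate was not analysed here. That group therefore held 3 libraries, of 23 in all. The labels give the DMSO samples no time, so within a line the 2 h and the 24 h comparison share their DMSO libraries, and values at the 2 times are given side by side. Time in culture may therefore differ between treated and DMSO libraries, and its part cannot be told apart from that of the drug. Both models are single cell lines, and the labels do not state whether replicates were grown as separate cultures. The p-values therefore reflect only how much these libraries varied, which may be technical variation. The RNA is from bulk cultures, in which fewer cells of a kind and less RNA per cell cannot be told apart.

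Lysosomes degrade proteins, lipids and sugars with hydrolases that work at the acid pH made by the V-ATPase, a rotary pump whose V1 sector splits ATP and whose V0 sector passes protons through the membrane. Autophagy wraps cytoplasm in a double membrane, under the control of the kinases ULK1 and ULK2 and with the LC3 and GABARAP proteins bound to the membrane, and fuses it with lysosomes. The related factors TFEB, TFE3 and MITF bind E-box sequences known as CLEAR elements in the promoters of many of these genes. They are held in the cytoplasm when the kinase mTORC1 is active, and ERK, the last kinase of the RAS pathway, is also known to phosphorylate TFEB. In myeloid cells lysosomal content is large, and several of the hydrolases are made in greater amounts as cells mature towards monocytes.

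The promoters of a few of these genes are shown because the E-box is the sequence through which the TFEB family is known to act, and because genes that share it responded in different directions. RefSeq promoter windows (GRCh38.p14) from 250 bases before to 50 bases after the annotated start were found for 41 of the 53 genes. The motif GTCACGTG, searched on both strands, was in the windows of 8 of these 41 genes (19.5%), against 5.33% of the 10440 genes of the expression table with a window and 2.93% of all 27305 genes with one. Its core CACGTG, which is palindromic and lies inside GTCACGTG, was in 9 of the 41 (22.0%), against 12.6% and 8.77%. The FOXO-type motif GTAAACA was in 1 of the 41, the window of CTSL (2.44%), against 3.56% and 4.19%. The 8 genes with GTCACGTG were LAMP1, MCOLN1, CTSA, CTSD, GAA, ATP6V0B, ATP6V0D1 and ATG14. Stretches of 6 of these windows follow, each 5′ to 3′ along the strand of its gene, with capitals marking GTCACGTG on either strand, or CACGTG alone where the first 2 bases differ. They lie at chr17:80101495-80101565, plus strand (GAA), at chr20:45891283-45891325, plus strand (CTSA), at chr11:1763959-1763982, minus strand (CTSD), at chr14:55411836-55411859, minus strand (ATG14), at chr1:43974893-43974934, plus strand (ATP6V0B) and at chr13:113297037-113297253, plus strand (LAMP1).
GAA: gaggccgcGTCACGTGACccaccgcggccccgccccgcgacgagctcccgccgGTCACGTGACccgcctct
CTSA: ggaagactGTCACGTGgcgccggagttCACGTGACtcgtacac
CTSD: gccgcgccCACGTGACcggtccgg
ATG14: caaaatccCACGTGACtggctctc
ATP6V0B: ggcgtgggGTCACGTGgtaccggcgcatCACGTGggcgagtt
LAMP1: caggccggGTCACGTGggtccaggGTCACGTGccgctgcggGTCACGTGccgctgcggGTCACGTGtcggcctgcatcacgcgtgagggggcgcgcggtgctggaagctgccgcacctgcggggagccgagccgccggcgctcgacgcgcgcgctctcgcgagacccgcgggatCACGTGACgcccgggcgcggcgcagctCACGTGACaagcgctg
GAA held 2 cores in the longer palindromic form, CTSA held 2 in opposite orientation and LAMP1 held 6. In OCI-AML3 at 24 h, the log2 fold changes of the 8 genes were 1.21 for GAA, 1.06 for ATG14, 0.80 for CTSA, 0.74 for CTSD, 0.17 for MCOLN1, -0.04 for ATP6V0D1, -0.40 for LAMP1 and -0.72 for ATP6V0B. In that line the genes with this E-box thus included rises of at least 2-fold, values near 0 and lower levels. In Molm-14 at 24 h the values, in the same order, were 0.63, 0.69, 0.42, 0.72, -0.28, 0.22, -0.16 and -0.71. None of the 8 rose at least 2-fold there, and both higher and lower levels occurred. A match describes the letters of a window and shows no binding.

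The values used are the authors' log2 CPM, in which read counts are scaled to a common library size. Levels are printed as CPM and differences as log2 fold changes ± SE (1 is a doubling), with n = 4 libraries per group except n = 3 for OCI-AML3 at 24 h. Higher and lower are used of genes whose adjusted p in limma was below 0.05, with Benjamini-Hochberg adjustment over 13033 genes. The words rose and fell are kept for such genes with a change of at least 2-fold. The effective size of a library lay between 15.3 and 22.4 M reads (M is mega, median 18.4 M), and log2 CPM values correlated between libraries of a group at 0.9912 to 0.9950 across genes. The myeloid markers SPI1 (166 to 558 mean CPM over the 6 groups), CEBPA (574 to 1019), CD33 (24.5 to 97.4) and LYZ (97.7 to 3793) were expressed in both lines, MPO was at 3.39 mean CPM or less in every group, and KIT was not among the genes of the table. Of 26 markers of other cell types, 8 were measured. Their summed level was 176 to 186 CPM in Molm-14 in DMSO and 211 to 224 CPM at 24 h, and 127 to 133 CPM and 196 to 203 CPM in OCI-AML3. By group mean, the endothelial and myeloid gene PECAM1 was at 32.6 to 164 CPM, NCAM1 at 48.3 to 89.2 CPM and EPOR at 10.5 to 28.2 CPM. The B cell gene PAX5 was at 8.48 to 20 CPM and the T cell gene TRAC at 3.90 to 13.0 CPM in Molm-14, both highest in DMSO, and in OCI-AML3 they were at 0.582 CPM or less and 0.152 CPM or less. KRT18, ITGA2B and COL1A2 were at 11.4 CPM or less in every group.

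After 24 h of RMC-7977 most lysosomal and autophagy genes were higher in both lines, while the V-ATPase genes were mixed. In Molm-14, 38 of the 53 genes were higher at 24 h (37.7% of all genes were) and 9 were lower (38.6% of all genes), with a median log2 fold change of 0.34 against 0.00 over all genes. In OCI-AML3, 37 were higher (42.4% of all genes) and 10 were lower (42.0%), with a median of 0.74 against 0.01. Changes of at least 2-fold were all in the upward direction. In Molm-14 at 24 h, 7 genes rose (11.4% of all genes did) and 0 fell (6.57%). In OCI-AML3 at 24 h, 13 rose (18.4%) and 0 fell (17.1%). The share of the set that rose was therefore close to that of all genes in Molm-14 (13.2%), and it was 24.5% in OCI-AML3. Counting both lines, which share no libraries, 33 genes (62.3%) were higher at 24 h in each, against 29.1% of all genes, and 6 (11.3%) were lower in each, against 32.2%. These 33, and the 38 in Molm-14, include CTSL and ULK2, which had few reads in Molm-14. The set was chosen with earlier results of these data known, so its shares beside those of all genes are a description and not a test. The genes that rose at least 2-fold in both lines were PSAP, GRN, ATP6V0A1, GABARAP, GABARAPL1 and WIPI1, which is 6 of 53 (11.3%) against 7.82% of all genes.

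At 2 h the same set had moved less. In Molm-14, 25 genes were higher (28.7% of all genes) and 12 were lower (30.8%), with a median log2 fold change of 0.12. The kinase gene ULK1 rose, the single gene of the set to do so (4.30% of all genes), and 0 fell (2.98%). In OCI-AML3, 23 were higher (31.4%) and 9 were lower (30.8%), with a median of 0.11, and 0 rose (3.23%) or fell (3.35%). The summed level of the 53 genes was 3045 to 3116 CPM in the Molm-14 libraries in DMSO, 3368 to 3559 CPM at 2 h and 4170 to 4296 CPM at 24 h. In OCI-AML3 it was 4676 to 5109, 5103 to 5298 and 8073 to 8363 CPM. A large part of the gain at 24 h was GRN and PSAP. From DMSO to 24 h, mean GRN went from 118 to 261 CPM in Molm-14 and from 481 to 1544 CPM in OCI-AML3. Mean PSAP went from 207 to 537 CPM and from 209 to 649 CPM. The 24 h libraries lay above all others of their line, and the 2 h and DMSO libraries of OCI-AML3 overlapped narrowly.

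**Figure D1:**
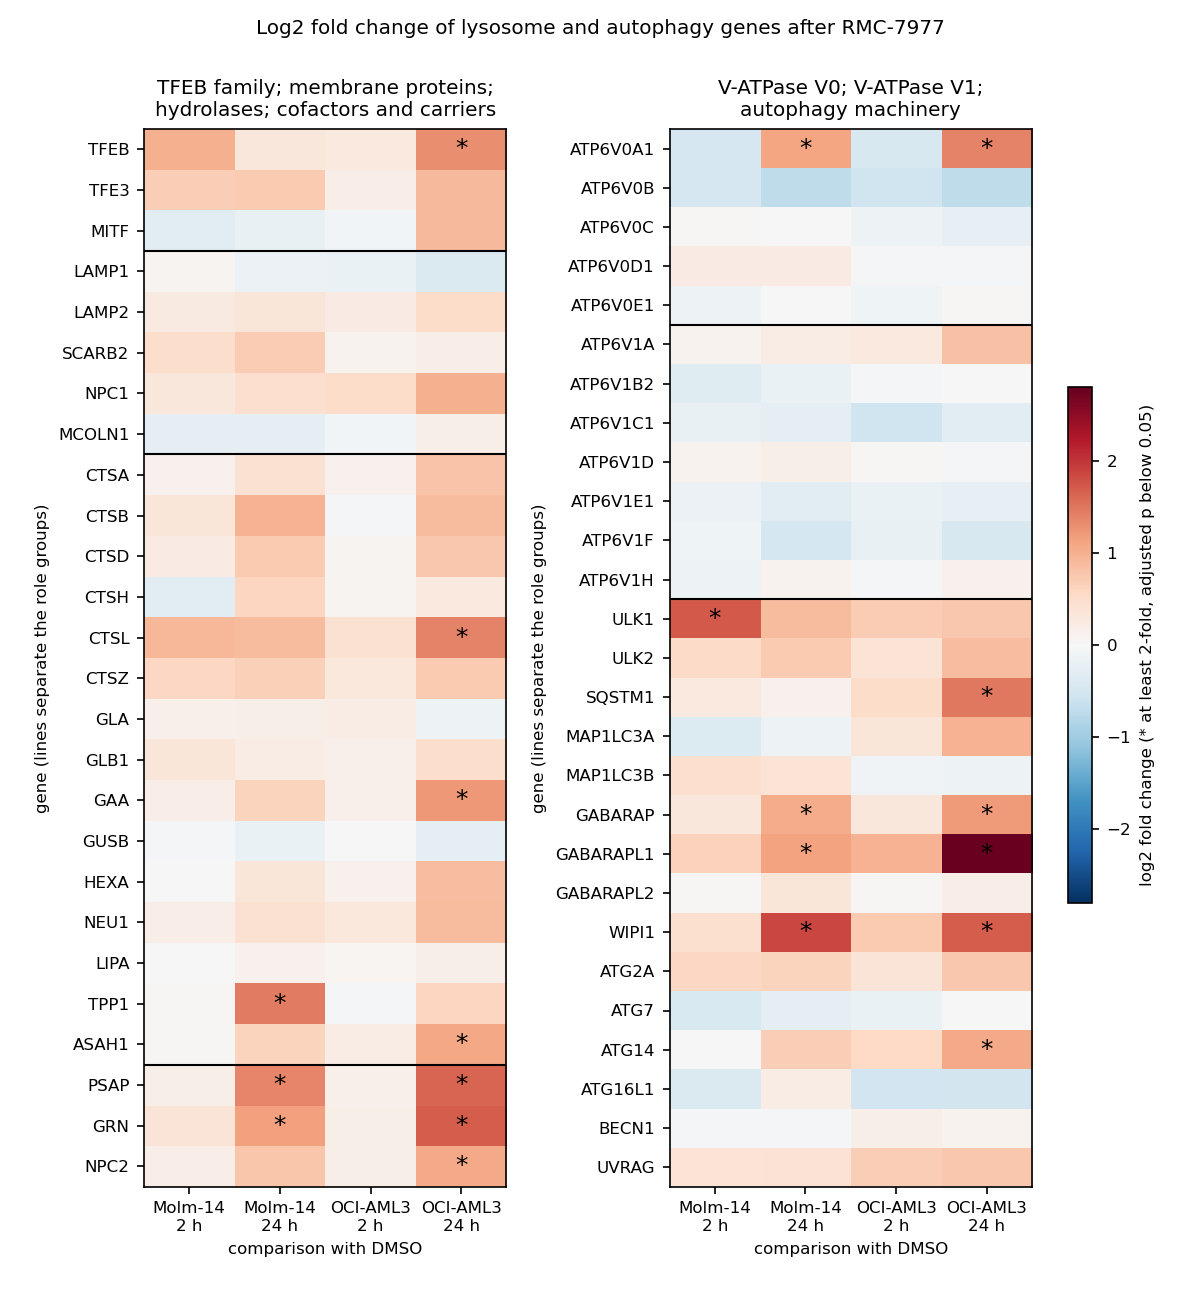
Log2 fold change of each of the 53 genes (rows, grouped by role) against DMSO in the 4 comparisons (columns). Red is higher, blue is lower, and an asterisk marks changes of at least 2-fold with an adjusted p below 0.05. The rows of hydrolases, cofactors and autophagy genes are mostly red at 24 h, and those of the V-ATPase are mostly pale or blue apart from ATP6V0A1.

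The TFEB family showed a different time course in each line. TFEB (chr6:41683978-41736259, minus strand, GRCh38 and GENCODE v29 for all genes) stood at 47.0, 48.7, 47.8 and 47.1 CPM in the 4 Molm-14 DMSO libraries, at 106, 89.7, 95 and 90.8 CPM at 2 h and at 63.3, 59.1, 63.7 and 53.0 CPM at 24 h. The 3 groups did not overlap: the 2 h libraries were highest and the 24 h libraries lay between. This was a log2 fold change of 1.00 ± 0.07 at 2 h (adjusted p = 6.08e-14), just under the 2-fold line before rounding, and of 0.32 ± 0.07 at 24 h (adjusted p = 6.57e-05). Values in OCI-AML3 were 19.4, 17.8, 16.6 and 16.7 CPM in DMSO, 21.5, 19.8, 22.6 and 21.6 CPM at 2 h and 47.1, 44.3 and 39.0 CPM at 24 h. Here the order was reversed in time, with a small difference at 2 h (0.28 ± 0.07, adjusted p = 0.000544) and a rise at 24 h (1.30 ± 0.07, adjusted p = 1.09e-16). The TFEB response at 2 h was weaker in OCI-AML3 than in Molm-14 (difference -0.72 ± 0.09, adjusted p = 3.41e-07), and at 24 h it was stronger (0.98 ± 0.10, adjusted p = 5.21e-10). The second difference passed 2-fold without Molm-14 24 h replicate 1 (1.008) or 3 (1.011), OCI-AML3 DMSO replicate 1 (1.026) or OCI-AML3 24 h replicate 4 (1.055). The value in Molm-14 at 2 h did so without DMSO replicate 2 (1.008), 2 h replicate 2 (1.026) or 2 h replicate 4 (1.02).

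TFE3 (chrX:49028726-49043486, minus strand), a second factor of the family with the same DNA preference, was higher in all 4 comparisons. In Molm-14 it went from 22.0, 23.0, 22.0 and 21.3 CPM in DMSO to 37.5, 36.2, 34.7 and 33.7 CPM at 2 h, and was at 37.2, 37.4, 35.1 and 36.6 CPM at 24 h. Both treated groups lay above DMSO and overlapped each other, with log2 fold changes of 0.69 ± 0.05 at 2 h (adjusted p = 2.43e-13) and 0.73 ± 0.05 at 24 h (adjusted p = 1.97e-14). In OCI-AML3 the DMSO libraries gave 41, 39.1, 37.0 and 38.6 CPM, those at 2 h 43.5, 43.8, 43.5 and 45.6 CPM, and those at 24 h 77.0, 70.5 and 70.4 CPM. The 3 groups were again separate, but most of the difference came by 24 h (0.90 ± 0.05, adjusted p = 4.15e-16) and little of it by 2 h (0.18 ± 0.05, adjusted p = 0.00168). The response at 2 h was weaker in OCI-AML3 (difference -0.50 ± 0.07, adjusted p = 6.68e-07).

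MITF (chr3:69739435-69968337, plus strand), the family member best known from pigment cells, mast cells and osteoclasts, was close to the lowest values of the table in OCI-AML3. In Molm-14 it was at 11.6, 12, 11.9 and 11.6 CPM in DMSO, at 9.93, 9.80, 8.91 and 9.27 CPM at 2 h and at 9.97, 9.78, 11.5 and 9.79 CPM at 24 h. All treated libraries lay below all DMSO libraries, yet neither difference passed the test (-0.32 ± 0.26 at 2 h, adjusted p = 0.311, and -0.21 ± 0.26 at 24 h, adjusted p = 0.485). The fit uses a single spread per gene over the 6 groups, which here includes the OCI-AML3 libraries with few reads. Ratios of reads in Molm-14 were 0.806 at 2 h (exact 95% interval 0.728 to 0.892) and 0.874 at 24 h (0.791 to 0.965). These intervals cover counting error only. OCI-AML3 libraries gave 0.309, 0.452, 1.18 and 0.638 CPM in DMSO, 0.439, 0.704, 0.464 and 0.592 CPM at 2 h and 1.16, 0.692 and 1.54 CPM at 24 h. These groups overlapped and rest on about 44 reads summed over the DMSO libraries and 56 over those at 24 h, a ratio of 1.87 after scaling for depth, with an exact 95% interval of 1.24 to 2.84 that covers counting error only. The fitted value at 24 h was 0.92 ± 0.28 (adjusted p = 0.00399). It was 1.267 without OCI-AML3 DMSO replicate 3 and 1.236 without 24 h replicate 2.

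**Figure D2:**
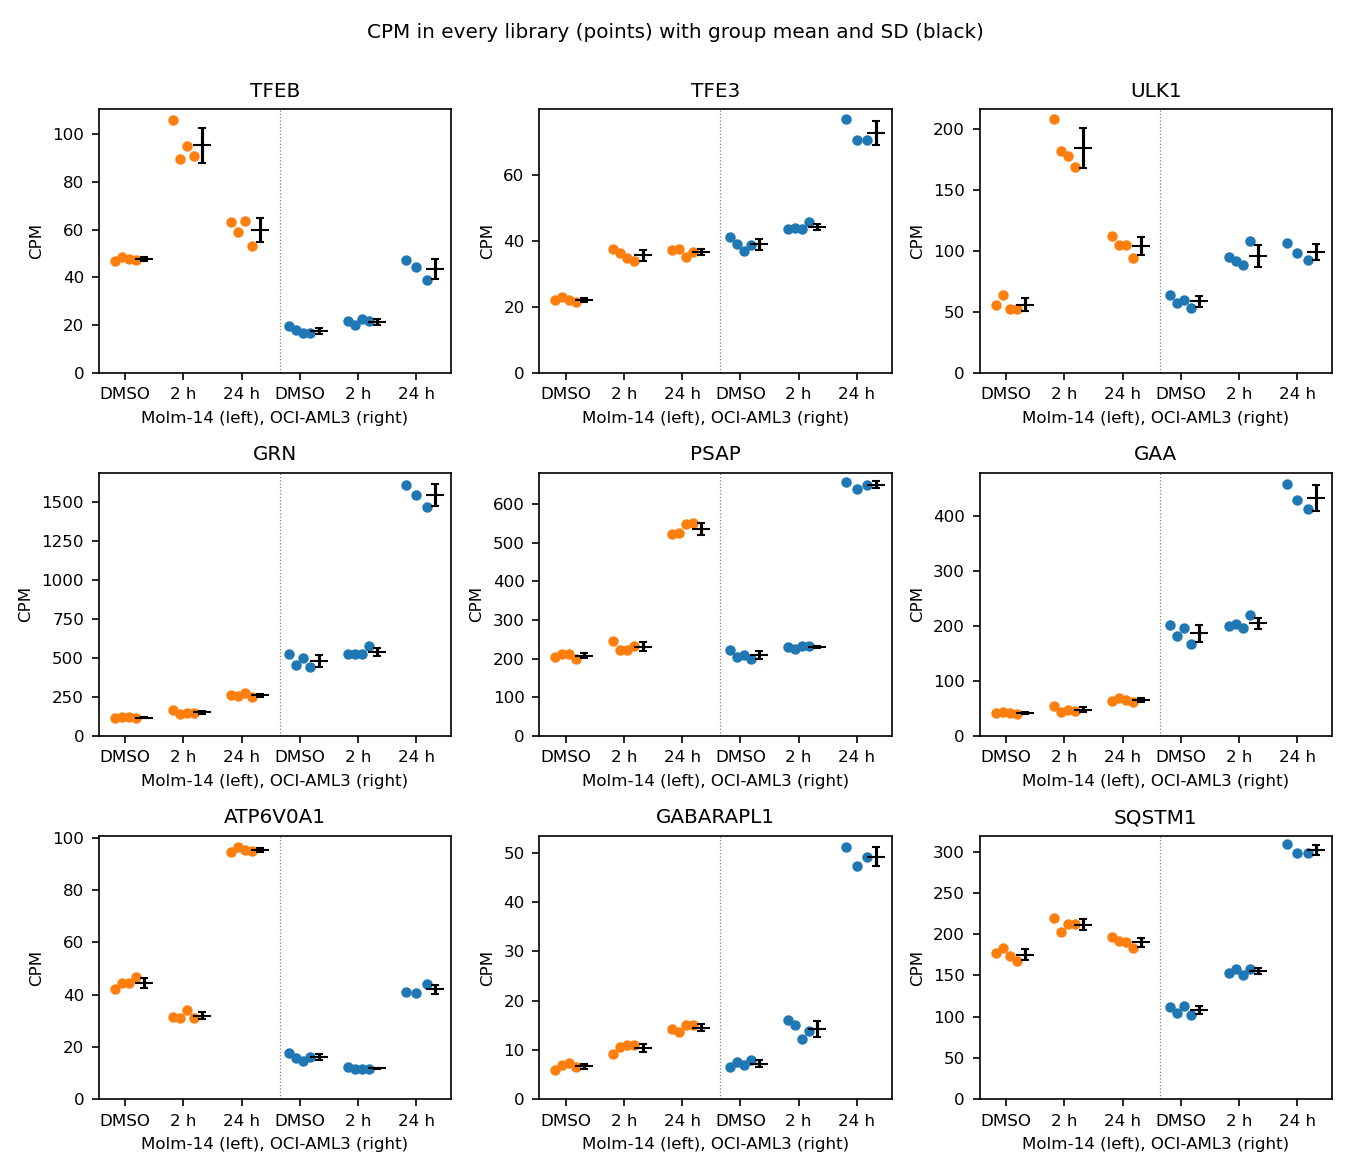
CPM of 9 genes in every library (points), with group mean and SD in black, for Molm-14 (left of each dotted line) and OCI-AML3 (right), in DMSO, at 2 h and at 24 h. TFEB and ULK1 peak at 2 h in Molm-14, GRN, PSAP, GAA, GABARAPL1 and SQSTM1 are highest at 24 h in OCI-AML3, and ATP6V0A1 is lowest at 2 h in both lines.

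Among the 5 lysosomal membrane proteins, 3 were higher (60.0%, against 37.7% of all genes) and 2 lower at 24 h in Molm-14, and 4 were higher (80.0%, against 42.4%) and 1 lower in OCI-AML3, with none reaching 2-fold. Of all genes, 38.6% were lower at 24 h in Molm-14 and 42.0% in OCI-AML3. NPC1 (chr18:23506184-23586898, minus strand), which carries cholesterol out of the lysosome, stood at 17.2, 20.8, 19.3 and 19.0 CPM in Molm-14 in DMSO, at 25.2, 23.5, 22.3 and 23.8 CPM at 2 h and at 25.2, 25.6, 26.5 and 27.9 CPM at 24 h. In OCI-AML3 it stood at 21.6, 22.8, 23.0 and 21.8 CPM in DMSO, at 31.3, 34.8, 33.4 and 28.1 CPM at 2 h, and at 45.3, 44.0 and 44.3 CPM at 24 h. Treated libraries lay above DMSO at both times in both lines, and in OCI-AML3 the 24 h libraries lay above those at 2 h as well. The log2 fold changes at 24 h were 0.47 ± 0.06 in Molm-14 (adjusted p = 1.16e-07) and 1.00 ± 0.07 in OCI-AML3 (adjusted p = 3.13e-14), the second just under the 2-fold line before rounding. It crossed that line without OCI-AML3 DMSO replicate 2 (1.009) or 3 (1.013), or 24 h replicate 2 (1.006) or 4 (1.001). The response at 24 h was stronger in OCI-AML3 (difference 0.53 ± 0.09, adjusted p = 1.41e-05). NPC1 shares exon bases with RMC1 on the other strand, and the strand setting of the counting is not given in the sources used here.

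SCARB2 (chr4:76158733-76234536, minus strand), the receptor that brings glucocerebrosidase to the lysosome, responded more in Molm-14. There it stood at 21.5, 20.9, 18.8 and 23.6 CPM in DMSO, at 30.7, 30.1, 29.9 and 28.2 CPM at 2 h and at 33.3, 34.8, 34.9 and 36.3 CPM at 24 h. The 3 groups did not overlap, and the log2 fold change reached 0.72 ± 0.06 at 24 h (adjusted p = 3.2e-12). OCI-AML3 libraries gave 28.6, 29.3, 30.1 and 30.7 CPM in DMSO, 31.8, 30.8, 33.8 and 29.9 CPM at 2 h and 34.2, 31.9 and 35.3 CPM at 24 h, a log2 fold change of 0.19 ± 0.06 at 24 h (adjusted p = 0.00856). That response was weaker than in Molm-14 (difference -0.53 ± 0.09, adjusted p = 4.79e-06). LAMP2, a structural membrane glycoprotein with a part in chaperone-mediated autophagy, was higher at 24 h in both lines (0.33 ± 0.05 and 0.51 ± 0.05). LAMP1, its close relative, was lower in both (-0.16 ± 0.04 and -0.40 ± 0.04). Its promoter window is the one with 6 E-box cores shown above. The calcium channel gene MCOLN1 was lower in Molm-14 (-0.28 ± 0.06) and higher in OCI-AML3 (0.17 ± 0.06), and these responses differed (0.45 ± 0.09, adjusted p = 5.45e-05).

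Most hydrolase genes were higher at 24 h. In Molm-14, 14 of 15 were higher (93.3%, against 37.7% of all genes) and 1 was lower (38.6% of all genes) at 24 h, with a median log2 fold change of 0.60. In OCI-AML3, 13 were higher (86.7%, against 42.4%) and 2 were lower (42.0% of all genes), with a median of 0.74. At 2 h in Molm-14, 9 were higher (60.0%, against 28.7%) and 1 was lower (30.8% of all genes). In OCI-AML3 at 2 h, 7 were higher (46.7%, against 31.4%) and 0 lower (30.8% of all genes). The medians at 2 h were 0.14 and 0.11. The exceptions at 24 h were GUSB, beta-glucuronidase, which was lower in both lines (-0.18 ± 0.04 and -0.26 ± 0.05), and GLA, alpha-galactosidase A, which was slightly lower in OCI-AML3 (-0.13 ± 0.06, adjusted p = 0.0384). GLA turned to 0.04 in OCI-AML3 when libraries were scaled to their totals. The summed level of the 15 hydrolases went from 778 to 833 CPM in DMSO to 1250 to 1286 CPM at 24 h in Molm-14, and from 1544 to 1721 CPM to 2718 to 2812 CPM in OCI-AML3.

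TPP1 (chr11:6612763-6619485, minus strand), a peptidase that trims tripeptides and is lost in a form of neuronal ceroid lipofuscinosis, rose in Molm-14 at 24 h. Its libraries there gave 77.0, 91.8, 86.2 and 83.9 CPM in DMSO, 86.6, 82.1, 87.2 and 89.5 CPM at 2 h and 226, 237, 238 and 233 CPM at 24 h. DMSO and 2 h overlapped and the 24 h libraries stood far above both (1.46 ± 0.04, adjusted p = 1.11e-22). In OCI-AML3 it gave 205, 218, 197 and 211 CPM in DMSO, 204, 200, 207 and 192 CPM at 2 h and 305, 317 and 316 CPM at 24 h. The difference at 24 h was 0.59 ± 0.05 (adjusted p = 1.44e-12), smaller than in Molm-14 (difference in response -0.87 ± 0.07, adjusted p = 9.9e-13).

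GAA (chr17:80101556-80119879, plus strand), the acid alpha-glucosidase that degrades lysosomal glycogen, rose in OCI-AML3. In that line its CPM was 202, 181, 197 and 168 in DMSO, 200, 203, 197 and 220 at 2 h and 458, 429 and 412 at 24 h, where no library overlapped DMSO (1.21 ± 0.07, adjusted p = 8.01e-17). In Molm-14 its CPM was 42.5, 43.5, 41.1 and 39.9 in DMSO, 54.7, 44.0, 46.5 and 45.1 at 2 h and 63.5, 69.8, 64.5 and 60.8 at 24 h. The 24 h libraries again stood apart, by 0.63 ± 0.06 (adjusted p = 1.14e-10), less than in OCI-AML3 (difference 0.58 ± 0.09, adjusted p = 1.68e-06). The promoter stretch of GAA shown above holds 2 E-boxes.

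ASAH1 (chr8:18055992-18084998, minus strand), acid ceramidase, rose in OCI-AML3 at 24 h. In OCI-AML3 it went from 62.8, 61.7, 64.8 and 63.4 CPM in DMSO by way of 72.1, 75.1, 72.9 and 71.0 CPM at 2 h to 129, 130 and 141 CPM at 24 h. Each step was clear of the one before, and the rise at 24 h was 1.08 ± 0.05 (adjusted p = 1.92e-18). In Molm-14 it was at 38.0, 35.6, 37.0 and 38.2 CPM in DMSO, at 34.8, 36.5, 40.5 and 39.7 CPM at 2 h and at 57.2, 55.5, 57.7 and 59.1 CPM at 24 h. The first 2 of these groups overlapped and the third did not (0.63 ± 0.05, adjusted p = 3.18e-13).

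CTSL (chr9:87725519-87731393, plus strand), the endopeptidase cathepsin L, rose in OCI-AML3. Values in OCI-AML3 were 22.0, 20.5, 23.1 and 20.8 CPM in DMSO, 27.9, 29.9, 28.7 and 30.5 CPM at 2 h and 56.4, 57.5 and 55.7 CPM at 24 h. Its 3 groups were separate, with a rise of 1.39 ± 0.26 at 24 h (adjusted p = 1.73e-05), while 0.44 ± 0.24 at 2 h did not pass the test (adjusted p = 0.117). That SE includes the spread of the Molm-14 libraries, which have few reads. The ratio of reads in OCI-AML3 at 2 h was 1.35, with an exact 95% interval of 1.27 to 1.44 that covers counting error only. In Molm-14, CTSL was near the lowest value of the table, at 0.197, 0.235, 0.105 and 0.229 CPM in DMSO, 0.469, 0.447, 0.321 and 0.220 CPM at 2 h and 0.209, 0.425, 0.485 and 0.295 CPM at 24 h. These values stand for about 6, 20 and 19 reads summed over each group, and the groups overlapped. The fitted values passed the test (0.94 ± 0.24 at 2 h, adjusted p = 0.0014, and 0.88 ± 0.24 at 24 h, adjusted p = 0.00169), with ratios of reads of 3.11 (exact 95% interval 1.21 to 9.48) and 3.01 (1.16 to 9.21). Both passed 2-fold when single libraries were left out: at 2 h without DMSO replicate 2 (1.057), DMSO replicate 4 (1.044) or 2 h replicate 4 (1.158), and at 24 h without DMSO replicate 2 (1.002) or 24 h replicate 1 (1.108).

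Of the other hydrolases, all but GUSB and GLA were higher at 24 h in both lines by less than 2-fold. Cathepsin B (CTSB) went from a mean of 123 CPM in DMSO to 242 CPM at 24 h in Molm-14 (0.98 ± 0.04) and from 230 to 426 CPM in OCI-AML3 (0.89 ± 0.04). The first of these passed 2-fold without Molm-14 DMSO replicate 2 (1.015). The aspartic protease gene CTSD was higher by 0.72 ± 0.06 and 0.74 ± 0.07, CTSZ by 0.66 ± 0.05 and 0.73 ± 0.06, and the protective protein gene CTSA, which stabilises the sialidase NEU1 and beta-galactosidase, by 0.42 ± 0.04 and 0.80 ± 0.05. NEU1 itself was higher by 0.42 ± 0.05 and 0.89 ± 0.06. HEXA, a subunit of beta-hexosaminidase, was higher by 0.33 ± 0.05 and 0.86 ± 0.05, and the beta-galactosidase gene GLB1 by 0.22 ± 0.05 and 0.49 ± 0.05. CTSA, NEU1 and HEXA responded more strongly in OCI-AML3 (differences 0.38, 0.47 and 0.53). The aminopeptidase gene CTSH was lower at 2 h in Molm-14 (-0.29 ± 0.06) and higher at 24 h (0.60 ± 0.06). The acid lipase gene LIPA moved little (0.13 ± 0.05 and 0.16 ± 0.06).

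The 3 cofactors and lipid carriers of the lysosomal lumen were all higher at 24 h in both lines. PSAP (chr10:71816298-71851375, minus strand), the precursor of the saposins that present sphingolipids to hydrolases, was at 204, 212, 213 and 200 CPM in Molm-14 in DMSO, at 246, 222, 223 and 233 CPM at 2 h and at 522, 524, 548 and 552 CPM at 24 h. In OCI-AML3 it was at 223, 205, 209 and 198 CPM in DMSO, at 229, 225, 232 and 232 CPM at 2 h and at 658, 640 and 650 CPM at 24 h. The 3 groups were separate in both lines, with a small step at 2 h and a large one by 24 h. At 24 h the rise was 1.37 ± 0.04 in Molm-14 (adjusted p = 2.67e-23) and 1.64 ± 0.04 in OCI-AML3 (adjusted p = 4.84e-25).

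GRN (chr17:44345086-44353102, plus strand), progranulin, is a secreted and lysosomal protein that binds prosaposin. In Molm-14 it went from 116, 123, 119 and 113 CPM in DMSO to 167, 143, 148 and 147 CPM at 2 h and 261, 258, 275 and 251 CPM at 24 h. In OCI-AML3 it went from 528, 454, 502 and 441 CPM in DMSO to 528, 524, 525 and 580 CPM at 2 h and then to 1613, 1548 and 1471 CPM at 24 h. The Molm-14 groups were separate, whereas in OCI-AML3 DMSO and 2 h overlapped and the 24 h libraries were the ones that stood apart. The rises at 24 h were 1.15 ± 0.05 (adjusted p = 2.13e-18) and 1.69 ± 0.06 (adjusted p = 3.97e-22), the larger in OCI-AML3 (difference 0.53 ± 0.08, adjusted p = 6.29e-07).

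NPC2 (chr14:74476192-74494177, minus strand), the soluble cholesterol carrier that hands its load to NPC1, shares exon bases with ISCA2 on the other strand. In Molm-14 it stood at 11.1, 11.5, 8.14 and 11.5 CPM in DMSO, at 11.7, 11.4, 12.9 and 11.8 CPM at 2 h and at 17.2, 19.0, 18.5 and 16.6 CPM at 24 h. Values in OCI-AML3 were 26.2, 23.8, 27.1 and 22.1 CPM in DMSO, 27.1, 26.8, 26.8 and 30.1 CPM at 2 h and 50.9, 52.0 and 50.7 CPM at 24 h. In both lines DMSO and 2 h overlapped and the 24 h libraries lay above. NPC2 rose at 24 h in OCI-AML3 (1.05 ± 0.09, adjusted p = 9.08e-12) and was higher in Molm-14 (0.77 ± 0.09, adjusted p = 2.13e-09). Without OCI-AML3 DMSO replicate 4 the first value was 0.997, under the 2-fold line.

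**Figure D3:**
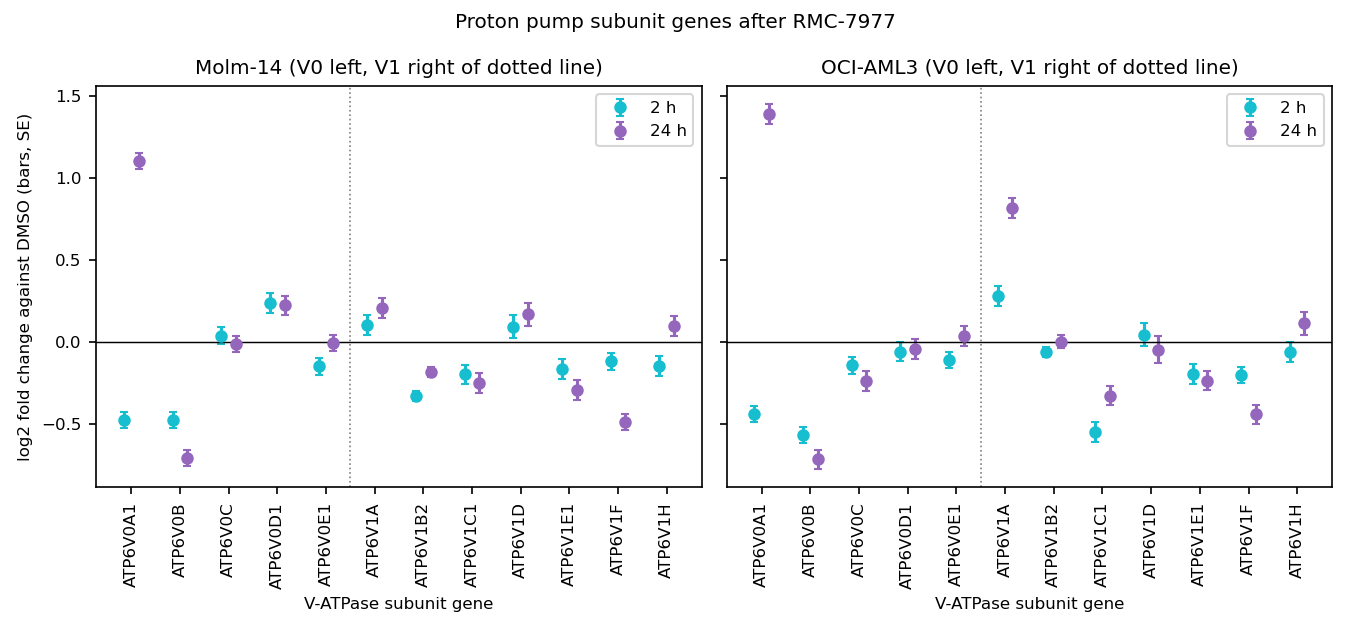
Log2 fold change against DMSO (points, with SE) of the 12 V-ATPase subunit genes at 2 h and 24 h in Molm-14 (left panel) and OCI-AML3 (right panel). ATP6V0A1 is below 0 at 2 h and above 1 at 24 h in both lines, ATP6V0B is below 0 throughout, and most other subunits lie within 0.5 of 0.

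The V-ATPase genes were mixed. Of the 12 subunit genes, 1 was higher (8.33%, against 28.7% of all genes) and 8 were lower at 2 h in Molm-14, and 1 was higher (8.33%, against 31.4%) and 6 were lower in OCI-AML3, with medians of -0.15 and -0.13. At 24 h, 4 were higher and 5 lower in Molm-14, where the share higher (33.3%) was near that of all genes (37.7%). In OCI-AML3, 2 were higher (16.7%, against 42.4%) and 5 lower. The medians were -0.01 and -0.04. Of all genes, 30.8% were lower at 2 h in each line, and 38.6% (Molm-14) and 42.0% (OCI-AML3) at 24 h. The counts of lower subunit genes at 24 h were thus near the shares of all genes. The summed level of the 12 was 886 to 935 CPM in Molm-14 in DMSO, 786 to 819 CPM at 2 h and 834 to 876 CPM at 24 h. In OCI-AML3 it was 1211 to 1309, 1097 to 1129 and 1142 to 1170 CPM. Treated libraries were thus below DMSO at both times in both lines, by a small margin.

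ATP6V0A1 (chr17:42458844-42522611, plus strand), the a1 form of the large membrane subunit that helps to form the proton path and to place the pump in the cell, was the single subunit gene that rose at least 2-fold. In Molm-14 its CPM was 42.2, 44.6, 44.3 and 46.6 in DMSO, 31.6, 31.0, 34.0 and 31.1 at 2 h and 94.8, 96.6, 95.5 and 95.1 at 24 h. In OCI-AML3 its CPM was 17.7, 15.6, 14.7 and 16.2 in DMSO, 12.2, 11.7, 11.7 and 11.6 at 2 h and 41.2, 40.8 and 44.0 at 24 h. In each line the 3 groups were separate, with 2 h the lowest and 24 h the highest. It was lower at 2 h by a log2 fold change of -0.48 ± 0.05 in Molm-14 (adjusted p = 5.63e-09) and -0.44 ± 0.05 in OCI-AML3 (adjusted p = 2.87e-08). By 24 h it had risen above DMSO by 1.11 ± 0.05 (adjusted p = 8.63e-18) and 1.39 ± 0.06 (adjusted p = 8.13e-20). Against 2 h, the rises at 24 h were 1.58 ± 0.05 and 1.83 ± 0.06. In OCI-AML3 it was the single gene of the set that was lower at 2 h and higher at 24 h (1.89%, against 2.69% of all genes). In Molm-14, CTSH and ATG16L1 did so too, which makes 3 genes (5.66%, against 3.54%).

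Of the remaining V0 genes, ATP6V0B, the c'' subunit of the proton-carrying ring, was lower in all 4 comparisons. Mean levels in Molm-14 were 151 CPM (DMSO), 108 CPM (2 h) and 92.4 CPM (24 h), and those in OCI-AML3 were 173, 117 and 105 CPM. Its log2 fold changes at 24 h were -0.71 ± 0.05 and -0.72 ± 0.06, the lowest of the 53 genes in each line. Its promoter window also holds the E-box, as shown above. The ring subunit gene ATP6V0C was lower in OCI-AML3 at 24 h (-0.24 ± 0.06) and gave -0.01 ± 0.05 in Molm-14. ATP6V0D1, the subunit that links the rotor to the ring, was higher in Molm-14 (0.22 ± 0.06) and gave -0.04 ± 0.06 in OCI-AML3. ATP6V0E1 gave -0.01 ± 0.05 and 0.04 ± 0.06.

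In the V1 sector no gene passed 2-fold. ATP6V1A (chr3:113747019-113812056, plus strand), the catalytic subunit that splits ATP, was at 47.6, 42.9, 46.5 and 46.2 CPM in Molm-14 in DMSO, at 47.6, 50, 49.3 and 49.7 CPM at 2 h and at 50.8, 50.4, 54.5 and 55.8 CPM at 24 h. OCI-AML3 libraries gave 31.6, 37.2, 35.5 and 36.7 CPM in DMSO, 43.2, 45, 44.0 and 39.1 CPM at 2 h and 57.7, 62.1 and 66.5 CPM at 24 h. The OCI-AML3 groups were separate and ascending, while in Molm-14 the 24 h libraries cleared DMSO by a small step. The log2 fold changes at 24 h were 0.21 ± 0.06 in Molm-14 (adjusted p = 0.0017) and 0.82 ± 0.06 in OCI-AML3 (adjusted p = 2.3e-13), and the difference in response was 0.61 ± 0.08 (adjusted p = 2.35e-07).

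ATP6V1F (chr7:128862826-128865844, plus strand), a small subunit of the central rotor whose exons overlap KCP on the other strand, went the other way. It stood at 83.4, 79.6, 76.1 and 85.9 CPM in Molm-14 in DMSO, at 72.2, 71.0, 79.5 and 76.5 CPM at 2 h and at 55.2, 59.2, 59.4 and 57.8 CPM at 24 h. In OCI-AML3 it stood at 119, 108, 126 and 106 CPM in DMSO, at 99.1, 98.5, 95.6 and 106 CPM at 2 h and at 86.8, 84.1 and 82.4 CPM at 24 h. The 24 h libraries were the lowest in both lines, by -0.49 ± 0.05 (adjusted p = 8.89e-10) and -0.44 ± 0.06 (adjusted p = 2.23e-08). The peripheral stalk gene ATP6V1E1 and ATP6V1C1, which joins the stalk to the membrane part, were also lower in both lines at 24 h (-0.29 and -0.24, and -0.25 and -0.33). ATP6V1B2, the B subunit of the ATP-splitting head, was lower in Molm-14 (-0.18 ± 0.03) and gave 0.00 ± 0.04 in OCI-AML3. ATP6V1D was higher in Molm-14 (0.17 ± 0.07) and gave -0.05 ± 0.08 in OCI-AML3. ATP6V1H gave 0.10 ± 0.06 and 0.11 ± 0.07, neither passing the test.

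In the autophagy machinery, 8 of 15 genes were higher (53.3%, against 28.7% of all genes) and 2 lower at 2 h in Molm-14, and 12 were higher (80.0%, against 37.7%) and 1 lower at 24 h. In OCI-AML3, 9 were higher (60.0%, against 31.4%) and 2 lower at 2 h, and 12 were higher (80.0%, against 42.4%) and 2 lower at 24 h. The medians were 0.31 and 0.41 in Molm-14 and 0.36 and 0.76 in OCI-AML3. Of all genes, 30.8% were lower at 2 h in each line, and 38.6% (Molm-14) and 42.0% (OCI-AML3) at 24 h. ULK1 (chr12:131894651-131923167, plus strand), the kinase that starts autophagy and is held back by mTORC1, rose in Molm-14 at 2 h. In Molm-14 it was at 55.3, 63.6, 52.0 and 52.5 CPM in DMSO, at 208, 182, 178 and 169 CPM at 2 h and at 112, 105, 105 and 93.7 CPM at 24 h. Values in OCI-AML3 were 63.5, 57.4, 59.4 and 53.2 CPM in DMSO, 94.7, 91.8, 88.2 and 108 CPM at 2 h and 106, 98.2 and 92.4 CPM at 24 h. The Molm-14 groups were separate with a peak at 2 h, whereas in OCI-AML3 the 2 treated groups overlapped and both lay above DMSO. The rise in Molm-14 at 2 h was 1.72 ± 0.07 (adjusted p = 8.69e-18), and the log2 fold change at 24 h was 0.90 ± 0.07 (adjusted p = 6.53e-12). OCI-AML3 gave 0.71 ± 0.07 at 2 h (adjusted p = 1.93e-09) and 0.76 ± 0.08 at 24 h (adjusted p = 7.58e-10).

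The difference in the ULK1 response at 2 h was -1.01 ± 0.10 (adjusted p = 7.17e-09), and ULK1 was the 1 gene of the set with a 2-fold weaker response in OCI-AML3 at that time (3.52% of all genes), with 0 stronger (2.12%). The call sits on the 2-fold line. It gave -0.963 with library totals and -0.996 with median-of-ratios scaling. It was -0.977 and -0.981 without Molm-14 DMSO replicates 3 and 4, -0.95 without Molm-14 2 h replicate 1, -0.968 without OCI-AML3 DMSO replicate 1, and -0.991 and -0.971 without OCI-AML3 2 h replicates 2 and 3, with adjusted p at most 4.87e-08. At 24 h the ULK1 responses differed by -0.14 ± 0.11 (adjusted p = 0.266).

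GABARAPL1 (chr12:10212458-10223130, plus strand), which encodes a ubiquitin-like protein of the autophagosome membrane and is a known FOXO target, had the largest log2 fold change of the 53 genes in the 4 comparisons with DMSO. OCI-AML3 libraries gave 6.44, 7.49, 7.02 and 7.90 CPM in DMSO, 16.0, 15.1, 12.1 and 13.8 CPM at 2 h and 51.2, 47.3 and 49.2 CPM at 24 h. In Molm-14 it stood at 5.90, 6.82, 7.28 and 6.55 CPM in DMSO, at 9.23, 10.5, 10.9 and 11.0 CPM at 2 h and at 14.3, 13.6, 15.1 and 15 CPM at 24 h. In both lines the groups were separate and ascending from similar DMSO levels. The rise at 24 h was 2.77 ± 0.10 in OCI-AML3 (adjusted p = 7.23e-22) and 1.13 ± 0.09 in Molm-14 (adjusted p = 8.99e-13), and the difference in response was 1.64 ± 0.13 (adjusted p = 3.69e-12). At 2 h the log2 fold changes were 0.98 ± 0.09 and 0.65 ± 0.09. The value in OCI-AML3 passed 2-fold without DMSO replicate 4 (1.023), without 2 h replicate 3 (1.055) and with the other scalings (1.048 with library totals and 1.002 with median-of-ratios scaling).

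GABARAP (chr17:7240014-7242770, minus strand), of the same protein family, rose at 24 h in both lines. In Molm-14 it was at 54.2, 53.8, 50.3 and 53.8 CPM in DMSO, at 62.6, 63.5, 66.7 and 69.6 CPM at 2 h and at 106, 110, 111 and 108 CPM at 24 h. In OCI-AML3 it was at 128, 119, 131 and 120 CPM in DMSO, at 156, 151, 147 and 164 CPM at 2 h and at 303, 276 and 278 CPM at 24 h. All groups of a line were separate and ascending. The rises were 1.04 ± 0.05 (adjusted p = 6.93e-19) and 1.20 ± 0.05 (adjusted p = 5.34e-20). GABARAPL2 was higher by 0.34 ± 0.06 and 0.19 ± 0.06 at 24 h.

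The LC3 genes differed from the GABARAP genes. MAP1LC3B, the LC3 form most used as an autophagosome marker, was higher in Molm-14 at 2 h (0.47 ± 0.05) and 24 h (0.38 ± 0.05). In OCI-AML3 it gave -0.09 ± 0.05 and -0.14 ± 0.06, the second with an adjusted p of 0.0234, and this turned to 0.03 when libraries were scaled to their totals. Its response at 24 h was weaker in OCI-AML3 (difference -0.52 ± 0.08, adjusted p = 1.03e-06). MAP1LC3B has a near-identical copy in the genome and shares exon bases with FBXO31 on the other strand, so its counts are uncertain. MAP1LC3A was counted almost entirely in OCI-AML3, with means of 98.4 CPM in DMSO, 125 CPM at 2 h and 194 CPM at 24 h (0.98 ± 0.26 at 24 h, adjusted p = 0.00118). That value passed 2-fold without DMSO replicate 1 (1.016) or 3 (1.021), or 24 h replicate 2 (1.009) or 4 (1.005). In Molm-14 about 4 reads were counted over all DMSO libraries.

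SQSTM1 (chr5:179806398-179838078, plus strand), the p62 receptor that ties ubiquitinated cargo to LC3 and is itself degraded by autophagy, separated the lines at 24 h. In Molm-14 it was at 177, 183, 173 and 167 CPM in DMSO, at 220, 203, 212 and 212 CPM at 2 h and at 196, 192, 191 and 183 CPM at 24 h. OCI-AML3 libraries gave 112, 105, 113 and 102 CPM in DMSO, 153, 158, 151 and 158 CPM at 2 h and 309, 298 and 299 CPM at 24 h. The OCI-AML3 groups ascended without overlap, while in Molm-14 the level at 24 h lay at or just above the upper end of DMSO. The log2 fold changes at 24 h were 0.12 ± 0.04 in Molm-14 (adjusted p = 0.00601) and 1.48 ± 0.04 in OCI-AML3 (adjusted p = 8.8e-24), with a difference in response of 1.36 ± 0.06 (adjusted p = 2.3e-18). SQSTM1 shares exon bases with MGAT4B and MRNIP on the other strand.

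WIPI1 (chr17:68420948-68457513, minus strand), which reads the phosphoinositide of the growing autophagosome membrane, rose in both lines. In Molm-14 it went from 2.44, 1.77, 1.80 and 1.48 CPM in DMSO to 2.21, 2.90, 2.71 and 2.36 CPM at 2 h and 7.67, 6.72, 6.20 and 6.37 CPM at 24 h. In OCI-AML3 it went from 5.67, 5.94, 5.18 and 5.75 CPM in DMSO to 9.17, 9.78, 9.52 and 9.02 CPM at 2 h and then to 20.1, 16.4 and 18.1 CPM at 24 h. The 24 h libraries were clear of the rest in each line, and in Molm-14 DMSO and 2 h overlapped. The rises at 24 h were 1.87 ± 0.13 (adjusted p = 2.99e-14) and 1.69 ± 0.14 (adjusted p = 1.28e-12), and the difference in response of -0.18 ± 0.19 did not pass the test (adjusted p = 0.408). WIPI1 shares exon bases with ARSG on the other strand.

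Among the other autophagy genes, ATG14, which directs the lipid kinase complex to the autophagosome, rose at 24 h in OCI-AML3 (mean 23.9 CPM in DMSO and 49.7 CPM at 24 h, 1.06 ± 0.07) and was higher in Molm-14 (16.7 and 27.0 CPM, 0.69 ± 0.06). UVRAG, the alternative partner in that complex, was higher at both times in both lines, by 0.37 ± 0.05 and 0.41 ± 0.05 in Molm-14 and by 0.68 ± 0.05 and 0.75 ± 0.06 in OCI-AML3. BECN1, the subunit common to both complexes, moved by 0.16 at most. The lipid transfer gene ATG2A was higher at 24 h (0.63 ± 0.09 and 0.75 ± 0.10). ATG16L1, part of the enzyme that attaches LC3 to lipid, was lower at 2 h in both lines (-0.40 ± 0.06 and -0.54 ± 0.06). At 24 h it was higher in Molm-14 (0.22 ± 0.06) and lower in OCI-AML3 (-0.52 ± 0.06), a difference in response of -0.74 ± 0.08 (adjusted p = 5.38e-09). ATG7, the E1-like enzyme of the same reaction, was lower in Molm-14 at 24 h (-0.26 ± 0.06) and gave -0.02 ± 0.07 in OCI-AML3. ULK2, expressed in OCI-AML3 (8.86 CPM in DMSO and 16.0 CPM at 24 h), was higher there at 24 h (0.86 ± 0.29, adjusted p = 0.00824) and was counted in Molm-14 with about 9 reads over all DMSO libraries. Its fitted value at 24 h in Molm-14 passed the test (0.73 ± 0.27, adjusted p = 0.0165), although the libraries overlapped those in DMSO. The ratio of reads there was 2.11 (exact 95% interval 0.92 to 5.27), an interval that includes no difference and covers counting error only. ULK2 is counted among the higher autophagy genes of Molm-14 at 24 h on these few reads.

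**Figure D4:**
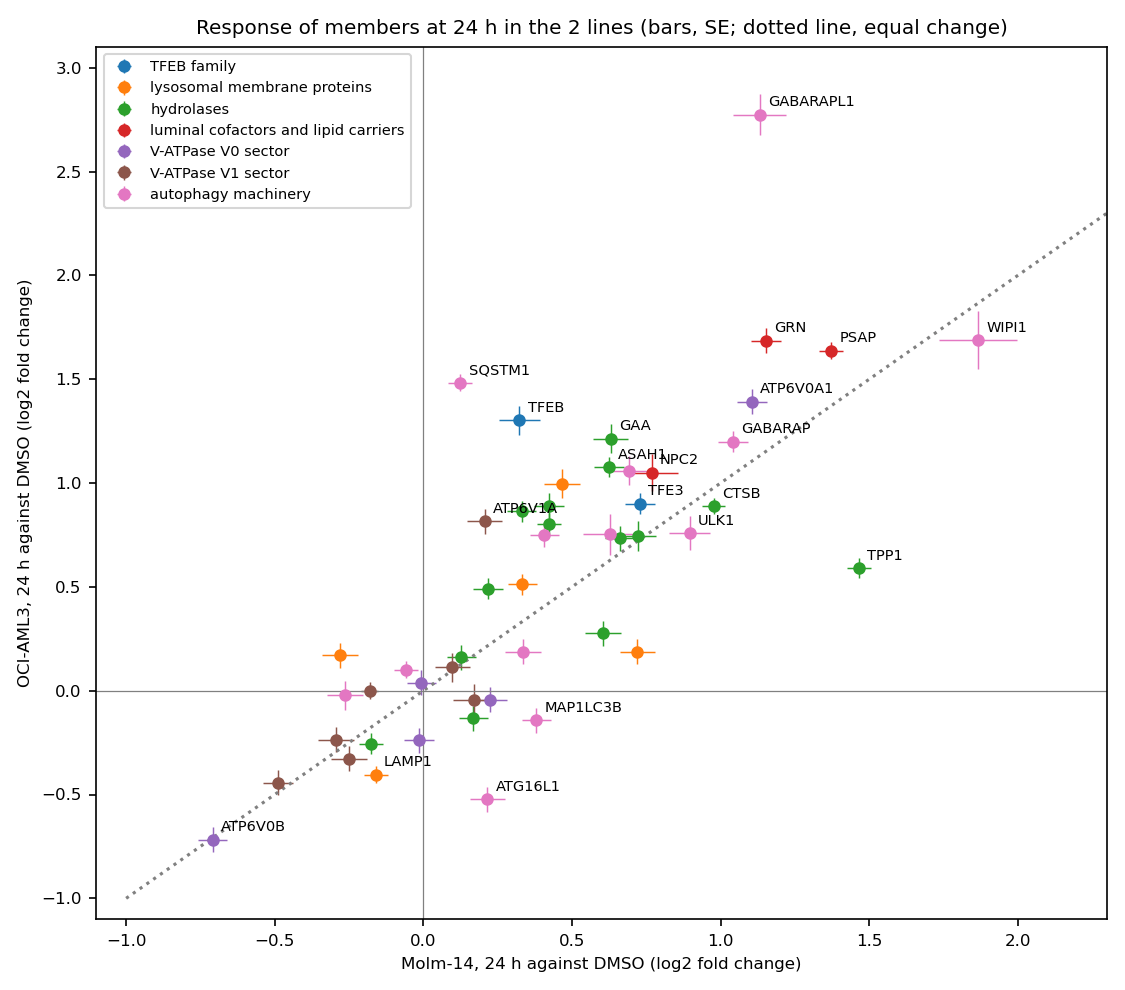
Log2 fold change at 24 h against DMSO in Molm-14 (horizontal axis) and OCI-AML3 (vertical axis), with SE as bars and colours for roles. The 4 genes with few reads in a line are left out, and the dotted line marks equal change. GABARAPL1, SQSTM1 and TFEB lie above the line, TPP1, SCARB2 and ATG16L1 below it, and most V-ATPase genes near the origin.

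The response at 24 h differed by at least 2-fold between the lines for 4 genes, all stronger in OCI-AML3 (7.55%, near the 8.09% of all genes), with 0 weaker there (9.75%). They were GABARAPL1 and SQSTM1, described above, and MITF (1.12 ± 0.38, adjusted p = 0.0124) and MAP1LC3A (1.13 ± 0.36, adjusted p = 0.00712), which have few reads in 1 of the lines. MITF gave 0.83 without OCI-AML3 DMSO replicate 1, 0.863 without OCI-AML3 24 h replicate 4 (adjusted p = 0.058) and 0.571 with 1 CPM added before the logarithm. MAP1LC3A gave 0.807 without Molm-14 DMSO replicate 2. The direction at 24 h was opposite in the lines for 4 genes (7.55%, near the 6.25% of all genes), namely MCOLN1, GLA, MAP1LC3B and ATG16L1. Of these, GLA and MAP1LC3B changed sign in OCI-AML3 when libraries were scaled to their totals. At 2 h, 18 genes were higher in both lines (34.0%, against 17.2%) and 7 were lower in both (13.2%, against 21.0%). Against 2 h, 4 genes had risen by 24 h in Molm-14 (7.55%, near the 7.25% of all genes) and 0 had fallen (3.38%). They were ATP6V0A1, TPP1 (1.44 ± 0.04), WIPI1 (1.41 ± 0.13) and PSAP (1.22 ± 0.04). In OCI-AML3, 6 had risen (11.3%, near the 11.6% of all genes) and 0 had fallen (10.9%). They were ATP6V0A1, GABARAPL1 (1.80 ± 0.10), GRN (1.52 ± 0.06), PSAP (1.50 ± 0.04), GAA (1.08 ± 0.07) and TFEB (1.02 ± 0.07). TFEB gave 0.986 without OCI-AML3 2 h replicate 2 and 0.962 without 24 h replicate 1. WIPI1 passed 2-fold without 24 h replicate 2 (1.026), as did MITF without 2 h replicate 2 (1.122) or 4 (1.039) or 24 h replicate 2 (1.311).

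The lines also differed before treatment with the inhibitor. In DMSO, 14 of the 53 genes were at least 2-fold higher in OCI-AML3 (17.9% of all genes) and 3 were at least 2-fold lower (12.2%), with a median difference of 0.50 against 0.07 over all genes. The higher genes included 7 of the 15 hydrolases, among them GAA (2.16 ± 0.06), CTSD (1.90 ± 0.06), CTSZ (1.44 ± 0.05), TPP1 (1.30 ± 0.04), CTSH (1.21 ± 0.06) and GLB1 (1.02 ± 0.05). GRN (2.03 ± 0.05), NPC2 (1.24 ± 0.09), ATP6V1B2 (1.23 ± 0.03), GABARAP (1.23 ± 0.05) and WIPI1 (1.61 ± 0.13) were higher as well. The lower genes were TFEB (-1.44 ± 0.07), ATP6V0A1 (-1.47 ± 0.05) and MITF. GLB1 sits on the line and gave 0.997 without Molm-14 DMSO replicate 4 and 0.917 with median-of-ratios scaling. For the genes with few reads, ratios of summed reads, scaled for depth, were 255 for CTSL (exact 95% interval 117 to 696), 69.3 for ULK2 (36.3 to 152) and, for MITF, 0.0469 (0.0338 to 0.0636), with intervals that cover counting error only. MAP1LC3A had about 7934 reads in OCI-AML3 against about 4 in Molm-14. PSAP, HEXA, MAP1LC3B, GABARAPL1 and ULK1 showed differences of 0.01, 0.02, -0.01, 0.12 and 0.07, none of which passed the test.

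**Figure D5:**
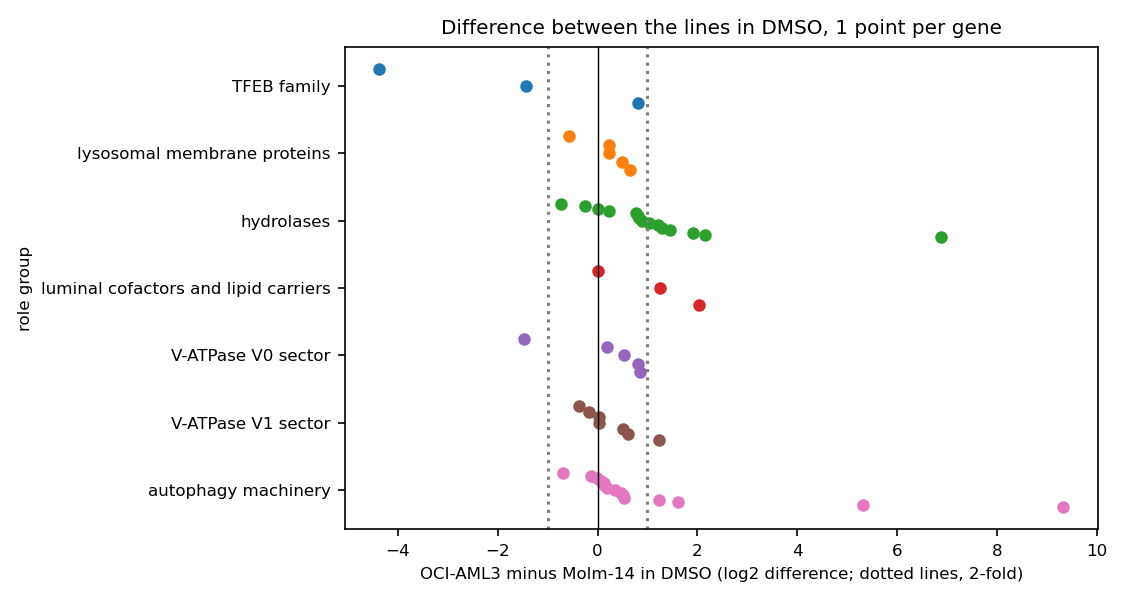
Difference between OCI-AML3 and Molm-14 in DMSO (horizontal axis, log2) for each gene, 1 point per gene, by role. Dotted lines mark 2-fold. Hydrolases lie mostly to the right of 0, and the points beyond 4 in either direction are the genes with few reads in 1 line, whose fitted values depend on the prior count.

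Other genes of the pathway were taken from lists by role. Beside the counts of lower genes in these lists, 38.6% of all genes in Molm-14 and 42.0% in OCI-AML3 were lower at 24 h. Genes are named by the smallest adjusted p in each line, so a gene named for a single line may have changed in the other. Of 37 measured further hydrolases and activators (of 41 listed), 22 were higher (59.5%, against 37.7% of all genes) and 8 lower at 24 h in Molm-14, and 25 were higher (67.6%, against 42.4%) and 6 lower in OCI-AML3. MANBA, beta-mannosidase, rose in both (1.73 ± 0.06 and 2.49 ± 0.06), and so did CTSK, cathepsin K (2.65 ± 0.09 and 3.02 ± 0.10). HGSNAT, of heparan sulphate breakdown, rose in Molm-14 (1.47 ± 0.04), and FUCA1, alpha-fucosidase (3.90 ± 0.12), and CTSS, cathepsin S (1.74 ± 0.05), in OCI-AML3. FUCA1 had also risen in Molm-14 at 2 h (1.49 ± 0.11). SCPEP1 was higher in Molm-14 (0.90 ± 0.04). Of 24 further membrane proteins (of 27 listed), 17 were higher (70.8%) and 3 lower in Molm-14, and 17 were higher (70.8%) and 4 lower in OCI-AML3. CD68, a macrophage lysosomal glycoprotein, rose in both lines (1.17 ± 0.05 and 1.60 ± 0.05), while LAPTM4B was lower in Molm-14 (-0.90 ± 0.04) and fell in OCI-AML3 (-2.24 ± 0.04). SLC17A5, the sialic acid exporter (1.95 ± 0.08), and CLN3 (1.52 ± 0.06) rose in OCI-AML3, and LAPTM5 (0.90 ± 0.04) and CD63 (0.75 ± 0.04) were higher in Molm-14. SLC17A5 was also higher in Molm-14 at 2 h (0.96 ± 0.07).

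Further V-ATPase subunits and partners were mixed, with 8 of 17 (21 listed) higher and 6 lower at 24 h in Molm-14 and 8 higher and 7 lower in OCI-AML3. The share higher was 47.1% in each, near that of all genes (37.7% and 42.4%). TCIRG1, the a3 form that takes the place of ATP6V0A1 in osteoclast and immune cell pumps, rose in Molm-14 (1.38 ± 0.07), and ATP6V0A2, the a2 form, was lower there (-0.70 ± 0.05). VMA21, an assembly chaperone of the V0 sector, was lower in Molm-14 (-0.68 ± 0.05) and fell in OCI-AML3 (-1.23 ± 0.05). The partners of pump assembly DMXL2 in Molm-14 (1.30 ± 0.08) and DMXL1, ROGDI and NCOA7 in OCI-AML3 (1.67 ± 0.08, 1.47 ± 0.08 and 1.31 ± 0.07) rose at 24 h. ROGDI had also risen in Molm-14 at 2 h (1.58 ± 0.07).

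Of 41 further autophagy genes (43 listed), 27 were higher (65.9%, against 37.7% of all genes) and 7 lower at 24 h in Molm-14, and 28 were higher (68.3%, against 42.4%) and 11 lower in OCI-AML3. TP53INP2, which binds LC3 and aids autophagosome formation, rose in both lines (2.69 ± 0.06 and 1.51 ± 0.07). The mitophagy receptor BNIP3L (1.87 ± 0.05), the cargo receptor OPTN (1.25 ± 0.06) and WDR45 (1.25 ± 0.08) rose in Molm-14. ATG16L2 (1.97 ± 0.06) and TECPR1 (1.40 ± 0.06) rose in OCI-AML3, and the ferritin receptor NCOA4 was higher there (0.96 ± 0.04). The regulators of TFEB at the lysosome, mTORC1, the Rag GTPases and folliculin, gave 14 higher and 12 lower of 34 in Molm-14 and 14 higher and 10 lower in OCI-AML3. The share higher, 41.2% in each, was near that of all genes, so the genes named next are single values and not a result of the list. MTOR itself was lower in Molm-14 (-0.63 ± 0.04) and fell in OCI-AML3 (-1.20 ± 0.05), as did MLST8, a subunit of the same complex (-0.97 ± 0.06 and -1.40 ± 0.07). FNIP1, a partner of folliculin, was higher in Molm-14 (0.60 ± 0.06) and rose in OCI-AML3 (1.07 ± 0.06). SESN2, a leucine sensor upstream of mTORC1, fell in Molm-14 (-1.55 ± 0.07), and ZKSCAN3, a zinc finger repressor of lysosomal genes, rose in OCI-AML3 (1.46 ± 0.09). Of 28 genes that sort hydrolases to lysosomes, 12 were higher (42.9%) and 10 lower in Molm-14, and 11 were higher (39.3%) and 12 lower in OCI-AML3, again near the shares of all genes. The adaptor gene GGA2 was higher in both (0.92 ± 0.03 and 0.75 ± 0.04), as was VPS39 of the HOPS tether (0.63 ± 0.04 and 0.88 ± 0.05). VPS11 was higher in Molm-14 (0.67 ± 0.05), and the sorting receptor gene SORL1 rose in OCI-AML3 (2.14 ± 0.12). CLN6, an endoplasmic reticulum protein needed to export hydrolases, fell in both lines (-1.11 ± 0.05 and -1.95 ± 0.05).

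Monocyte and macrophage markers also changed by 24 h, more of them upward than downward in both lines. Of 30 listed markers, 23 were measured. In Molm-14 at 24 h, 12 were higher (52.2%, against 37.7% of all genes) and 4 lower (38.6% of all genes). In OCI-AML3, 15 were higher (65.2%, against 42.4%) and 6 lower (42.0% of all genes). Their summed level went from 924 to 979 CPM in DMSO to 1274 to 1299 CPM at 24 h in Molm-14, and from 2377 to 2455 CPM to 6723 to 7360 CPM in OCI-AML3. Much of the OCI-AML3 change was LYZ, with means of 574 CPM in DMSO and 3793 CPM at 24 h. At 2 h the summed level was 795 to 831 CPM in Molm-14, below DMSO, and 2418 to 2513 CPM in OCI-AML3. CSF1R, the receptor of macrophage growth factor, rose by 3.64 ± 0.06 and 3.71 ± 0.06 at 24 h. FCGR2A (2.90 ± 0.06), ITGAX (2.81 ± 0.09) and CD36 (1.26 ± 0.05) rose in Molm-14, and LYZ (2.72 ± 0.05) and S100A8 (3.28 ± 0.10) in OCI-AML3, where FCGR1A fell (-2.96 ± 0.08). Of the markers, 2 fell in Molm-14, FCGR1A (-1.15 ± 0.07) and CCR2 (-1.11 ± 0.07), and those that fell in OCI-AML3 included FCN1 (-2.86 ± 0.27) and CD14 (-3.56 ± 0.37) beside FCGR1A. CD14, the usual surface marker of monocytes, thus moved against the markers that rose, with OCI-AML3 means of 3.40 CPM (DMSO), 0.576 CPM (2 h) and 0.321 CPM (24 h). CCR2, FCN1 and CD14 are named because they fell, a choice made after their values were seen. CD14 means in Molm-14 were 0.399, 0.337 and 0.361 CPM. The stress genes HSPA1B and DNAJB1 fell in both lines at 24 h (-1.25 and -1.11 in Molm-14, -2.52 and -1.64 in OCI-AML3). The summed level of 9 measured genes of RNA quality and stress (10 listed) was 14856 to 17748 CPM in DMSO and 11970 to 13755 CPM at 24 h in Molm-14, and 16764 to 19444 CPM and 16734 to 18491 CPM in OCI-AML3. The part of these genes and of the monocyte markers in the lysosomal changes was not tested.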

How the data were processed

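RNA-seq values came from 1 table of 13033 gene symbols by 23 libraries. The authors deposited log2 CPM, on which all libraries share the lowest value of -3.26 (0.105 CPM, a prior of about 1.96 reads at the mean library size), so fold changes of genes with few reads are understated. The tools, per the submitters' processing notes, included Trimmomatic 0.36, STAR 2.7.8a, RSEM 1.3.3, edgeR 3.24.3, limma 3.38.3 and MultiQC 1.28, with GRCh38 (hg38). Whether counting used strand, and how low genes were filtered, is not given in the sources used here. Columns were matched to samples by the library names in the labels, and no column was left unmatched.

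Depth was recovered from the spacing of low values. Of the values worth 20 reads or fewer, 75.2% to 82.8% per library came within 0.05 of a whole number of reads. The library size was the value that made this share largest. The deposited values are normalized logs, so no test on counts was used. Numbers of reads given for genes with few reads are these recovered values, and the ratios between them carry exact 95% intervals.

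Limma 3.58.1 in R 4.3.3 fitted 6 group means over the 23 libraries with its trend and robust options. Each gene had a single estimate of spread over the 6 groups. For genes with few reads in a line, the SE of both lines includes the spread of those libraries. Contrasts of the means gave the comparisons, with Benjamini-Hochberg adjustment over 13033 genes. The 53 genes, their roles and the lists of other genes were chosen with earlier results of these data known. Values in every library are given for the TFEB family, for up to 4 genes called (at least 2-fold) in each role and line, by the largest difference, and for the 2 genes with the smallest adjusted p at 24 h in roles with none called. Other genes of the lists are up to 4 with the smallest adjusted p per list and line. ATG14, which rose in OCI-AML3, fell outside the limit of 4. Gene positions are from GENCODE v29, and promoter windows from RefSeq. The alternatives were another pseudocount, a filter on low genes, 2 other scalings, limma without the trend and robust options, each line alone, a replicate block, and each library left out in turn.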

Additional observations from a re-analysis of the deposited data

Results flagged for a closer look

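Among 100 groups of 4 libraries examined for 20 genes, 6 held a library that stood apart from the other 3 by Dixon's criterion, where chance gives about 1 in 20. NPC2 was at 8.14 CPM in Molm-14 DMSO replicate 3, with the others at 11.1 to 11.5 CPM, and GABARAP was at 50.3 CPM in the same library, with the others at 53.8 to 54.2 CPM. GRN was at 580 CPM in OCI-AML3 2 h replicate 4 (others 524 to 528), NPC2 at 30.1 CPM (26.8 to 27.1) and TFE3 at 45.6 CPM (43.5 to 43.8) in that same library. MITF was at 11.5 CPM in Molm-14 24 h replicate 3, with the others at 9.78 to 9.97 CPM.

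For 3 genes with enough reads in both lines, the contrast between the lines itself passed the test at 2-fold. The ULK1 response at 2 h differed by -1.01 on the log2 scale (OCI-AML3 minus Molm-14). The responses of SQSTM1 and GABARAPL1 at 24 h were higher there by 1.36 and 1.64.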

How the results depend on the processing

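Of 7685 values of single genes recomputed under an alternative, 7607 kept their direction and their side of the 2-fold call, 56 gained the call, 20 lost it and 2 changed sign. The 2 were GLA (0.039) and MAP1LC3B (0.031) in OCI-AML3 at 24 h with library totals, against -0.13 and -0.14. That scaling moved the median of all genes by 0.17 in OCI-AML3 at 24 h and by 0.10 in Molm-14 at 24 h. With it, 21 genes rose and 5 were lower in OCI-AML3 at 24 h (13 and 10 otherwise), and 11 had risen against 2 h (6 otherwise). With library totals and with median-of-ratios scaling, 2 genes rose at 2 h in Molm-14 (ULK1, and TFEB at 1.021 and 1.009), 1 rose at 2 h in OCI-AML3 (GABARAPL1), and 0 had a 2-fold weaker response at 2 h in OCI-AML3. With 1 library left out in turn, these last 3 counts ran from 1 to 3, from 0 to 1 and from 0 to 1. TFEB at 2 h in Molm-14 gave 1.008 without DMSO replicate 2, and 1.026 and 1.02 without 2 h replicates 2 and 4. CTSL passed 2-fold there without DMSO replicates 2 (1.057) and 4 (1.044) or 2 h replicate 4 (1.158). Without 1 library the genes that rose were 7 to 9 in Molm-14 and 12 to 16 in OCI-AML3 at 24 h. With each line fitted alone, 27 genes were higher at 2 h in OCI-AML3 (23 otherwise). Same-numbered libraries did not deviate together as a rule (median correlation 0.00 in Molm-14 and -0.03 in OCI-AML3), so the numbers were not taken as pairs. Single correlations ran from -0.17 to 0.19 and from -0.45 to 0.32. Those above 0.1 were 4 of 12 in Molm-14 (5 of 36 for unlike numbers) and 2 of 10 in OCI-AML3 (10 of 30). In the fit with a replicate block, MITF (1.056) and NPC1 (1.017) passed 2-fold in OCI-AML3 at 24 h, MITF did so against 2 h (1.132), GLB1 gave 0.998 between the lines in DMSO, and no other 2-fold call of the 53 genes changed. Genes with few reads (CTSL, ULK2 and MAP1LC3A in Molm-14, MITF in OCI-AML3) are limited by depth.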
